A study of Mus musculus with 35 samples.

Results

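The comparison described here set IAMP-siR-1 against Scrambled in IL-17-treated cardiac fibroblasts (CFs). It was defined by the labels alone: the 3 libraries of CFs that received the first IAMP siRNA and the 3 that received the Scrambled control siRNA, all stimulated with IL-17, which makes 6 of the 35 libraries of the series. The CFs came from adult mouse hearts, as the adherent fraction of enzymatically dissociated cells grown in culture, and no genotype or transgene separated the groups. Each culture received siRNA for 24 h and then IL-17 for 24 h, and its polyadenylated RNA was sequenced. A further group of 3 IL-17-treated libraries received IAMP-siR-2, a different siRNA against the same transcript, and parallel sets of untreated and TGF-β-treated CFs received the same siRNAs. Nothing in the labels says that the 3 libraries of a group came from separate isolations, so the p-values below measure the spread between these libraries, which may be technical.

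IL-17 is a cytokine of T cells and innate lymphocytes that acts on stromal cells. Its receptor signals through NF-κB and C/EBP factors and prolongs the life of short-lived messengers, and fibroblasts answer with neutrophil-attracting chemokines, IL-6, colony-stimulating factors and matrix-degrading proteases. IAMP is a micropeptide encoded in mouse by 4930523C07Rik (ENSMUSG00000090394, chr1:160044382-160080208 on the plus strand of GRCm38), and the study asked whether it restrains inflammatory gene expression in CFs.

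The targeted transcript was read first, as a check on the labels. 4930523C07Rik held 2233, 2500 and 2044 estimated counts in the Scrambled libraries and 260, 318 and 283 in the IAMP-siR-1 libraries. The groups were far apart, a 7.23-fold fall (log2 fold change −2.85 ± 0.11 SE, adjusted p = 1.5e-12, edgeR quasi-likelihood test). With IAMP-siR-2 the 3 libraries held 214, 195 and 191 estimated counts.

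All libraries had similar depth, with 114219738 to 117110809 estimated counts among the 6 compared. An estimated count is the authors' read coverage of a gene turned into a number, and 1 read pair was worth about 6 of them, so that a gene with 18 or fewer in a library rested on at most 3 read pairs. Levels are given below as TMM-normalised CPM, counts scaled to library size, which serve to compare libraries and not genes of different length. Cultures contained CFs by their markers: Col1a1, Pdgfra and Dcn averaged 3541 ± 60.1, 435 ± 11.3 and 750.0 ± 10.4 CPM (mean ± SD, n = 3) in Scrambled.

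Scrambled libraries 1 and 3 also contained liver transcripts. Alb, the serum albumin made by hepatocytes, held 6328 and 4206 estimated counts in these libraries, 34 in Scrambled library 2 and 0 in every IAMP-siR-1 library. The 36 hepatocyte markers together reached 316 and 238 CPM in Scrambled libraries 1 and 3, against 74.3 in Scrambled library 2 and 65.9 to 71.2 in IAMP-siR-1. Of the 19 hepatocyte markers tested, 7 were called lower with IAMP-siR-1, among them Hpx, Ahsg and Rbp4. Their median log2 fold change was −6.01 over the 3 Scrambled libraries but −0.07 against Scrambled library 2 alone, and none was called once Scrambled libraries 1 and 3 were left out. Hepatocyte genes were therefore not read as an effect of the siRNA. The source of the liver RNA was not tested.

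**Figure D1:**
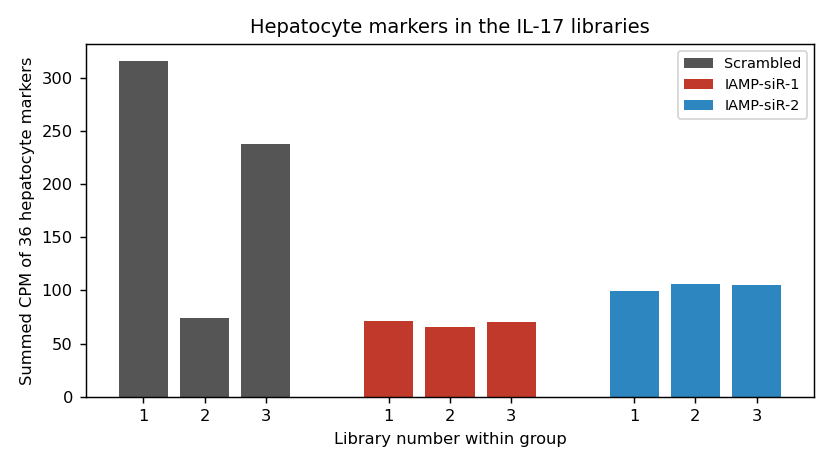
Summed level of 36 hepatocyte markers (CPM, linear axis from 0) in each of the 9 IL-17 libraries, 1 bar per library. Scrambled libraries 1 and 3 stand at 316 and 238 CPM, and the other 7 libraries between 65.9 and 106 CPM.

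Among 19906 genes tested, 1111 (5.58%) were called higher and 1586 (7.97%) lower with IAMP-siR-1. Counts over gene lists below are to be read beside these shares, and a count near them does not set a list apart. Calls needed an adjusted p no greater than 0.05 together with a change of about 1.5-fold or more, which is the study's cut-off for IL-17-treated CFs. The adjusted p alone was passed by 42.27% of the genes. The median log2 fold change of all genes was −0.003. In 1068 of the 1111 higher calls every IAMP-siR-1 library lay above every Scrambled library, and in 1551 of the 1586 lower calls every one lay below. Over all genes tested, these shares were 25.2% above and 26.8% below. Protein-coding genes made up 79% of the higher and 90.5% of the lower calls, against 75.7% of all genes tested. Leaving out Scrambled libraries 1 and 3 gave 1052 higher and 1296 lower calls, and 831 of the higher and 1173 of the lower calls were shared with the full comparison. No gene was called in opposite directions.

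Single genes are described here if they averaged at least 1 CPM, did not overlap between groups, carried a gene symbol that is not a predicted model, and changed by about 1.5-fold or more in the same direction against Scrambled library 2 alone. Hepatocyte genes with large falls, such as Cps1 and Hpx, did not meet all of these criteria. Cps1, at 1.25 CPM in Scrambled and 0.015 CPM in IAMP-siR-1, averaged less than 1 CPM over the 6 libraries. Against Scrambled library 2 alone its log2 difference was −0.33. Hpx overlapped between groups. Under these criteria the largest rises included a trigger of coagulation, a chemokine, a carboxypeptidase-like protein and an enzyme of retinoic acid synthesis. F3, which encodes tissue factor, the starter of the extrinsic coagulation cascade, read 33.9, 30.8 and 32.1 CPM in Scrambled and 387, 371 and 376 CPM in IAMP-siR-1. This was an 11.7-fold rise (log2 fold change 3.55 ± 0.05 SE, adjusted p = 4.0e-18, edgeR). Cpxm1, a secreted relative of the carboxypeptidases, read 18.8, 18.8 and 19.6 CPM against 163, 151 and 152 CPM, an 8.13-fold rise. Aldh1a3, a retinaldehyde dehydrogenase that makes retinoic acid, read 16.3, 14.2 and 16.9 CPM against 112, 113 and 120 CPM, a 7.3-fold rise. In each of the 3 genes the groups were separated by several times the range within a group.

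The other large rises lay at lower levels. Rab3c, a small GTPase of secretory vesicles, read 0.199, 0.199 and 0.0738 CPM against 2.03, 2.42 and 2.41 CPM, at 14.5 the largest fold among these rises. Bdkrb2, the bradykinin B2 receptor, read 0.216, 0.299 and 0.1803 CPM against 2.66, 2.56 and 2.04 CPM. Neither gene overlapped between groups, although their Scrambled libraries held few read pairs, as the 24, 24 and 9 estimated counts of Rab3c show. Mmp1b, Sprr2h, Sprr2e, Bhlha15 and Prl8a9 rose by log2 fold changes of 3.02 to 3.51. Reads of Mmp1b overlap those of Mmp12, which lies on the opposite strand, and Sprr2 and Prl genes belong to families of near-identical copies, so that the share of each copy is uncertain.

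Among the largest falls by the same criteria were receptors and ligands that guide immune cells and a block of interferon-induced genes. Cx3cl1, the membrane-bound chemokine fractalkine, read 105.5, 105.9 and 103.95 CPM in Scrambled and 20.3, 18.9 and 16.9 CPM in IAMP-siR-1, a 5.62-fold fall (log2 fold change −2.49 ± 0.09 SE, adjusted p = 1.4e-09, edgeR). Ackr4, a scavenging receptor for chemokines, read 13.1, 13.5 and 14.1 CPM against 1.25, 1.34 and 1.29 CPM. Gpr182, another atypical chemokine receptor, read 10.7, 9.24 and 11.2 CPM against 1.83, 0.905 and 1.58 CPM. No library of one group reached the other in these 3 genes, although Ackr4 and Gpr182 overlap the opposite-strand genes Acad11 and Zbtb39 and the counting was not stated to use strand.

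Tnfsf10, which encodes the death ligand TRAIL, fell the most by fold among these genes, from 3.42, 2.76 and 1.55 CPM to 0.198, 0.353 and 0.161 CPM (log2 fold change −3.44 ± 0.39 SE, adjusted p = 1.2e-06, edgeR). Mx1, an antiviral GTPase, read 6.92, 4.73 and 2.17 CPM against 0.630, 0.678 and 0.762 CPM. Rsad2, which encodes the antiviral enzyme viperin, read 102, 83.6 and 44.999 CPM against 13.8, 14.9 and 12.9 CPM. In all 3 genes Scrambled library 3 was the lowest of its group yet stood above every IAMP-siR-1 library. Tgtp1, Tgtp2 and Gbp4, interferon-induced GTPases, fell by log2 fold changes of 2.49 to 2.79, and Tmem140, Celf5 and Rtn4rl1 completed the 12 largest falls that met the criteria. Tgtp1 and Tgtp2 are near-identical copies, and Gbp4 and Tmem140 overlap Gbp9 and Cyren.

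**Figure D2:**
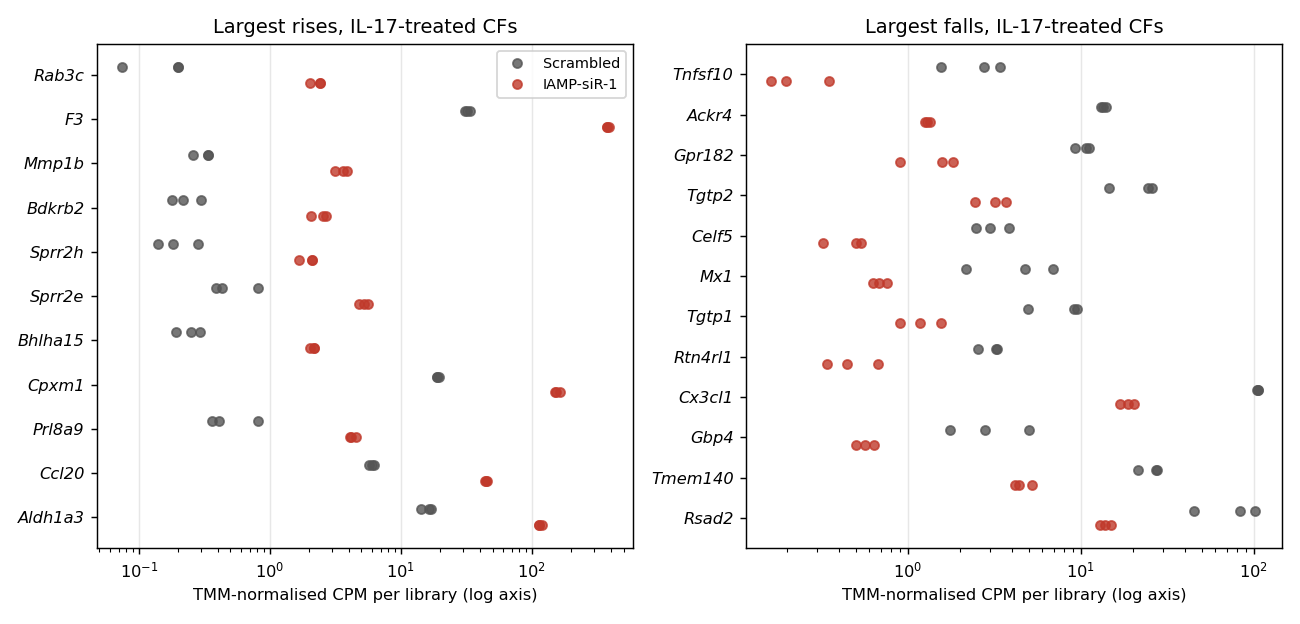
Level in CPM (log axis) of 11 of the 12 largest rises (left) and the 12 largest falls (right) among genes that met the stated criteria, 1 point per library for the 3 Scrambled and 3 IAMP-siR-1 libraries. The groups do not overlap in any of these genes, and F3 moves from 30.8 to 33.9 CPM up to 371 to 387 CPM.

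Genes that IL-17 is known to induce were mostly higher with IAMP-siR-1. Of 25 members tested, 16 were called higher and 1 lower, with a median log2 fold change of 1.44 against −0.003 for all genes. The list summed to 5209 to 5339 CPM in Scrambled and 9188 to 9694 CPM in IAMP-siR-1. Promoters of 3 of these genes are shown because they carry a match to the NF-κB motif, printed in capitals, in the 160 bases before the start of transcription (RefSeq, GRCm38.p6, written along the gene). They lie at chr5:90785941-90786100 for Cxcl3, chr1:83116606-83116765 for Ccl20 and chr5:30012954-30013113 for Il6, all on the plus strand.
Cxcl3: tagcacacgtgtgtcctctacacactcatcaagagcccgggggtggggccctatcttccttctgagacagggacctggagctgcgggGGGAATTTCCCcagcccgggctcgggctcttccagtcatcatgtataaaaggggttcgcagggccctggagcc
Ccl20: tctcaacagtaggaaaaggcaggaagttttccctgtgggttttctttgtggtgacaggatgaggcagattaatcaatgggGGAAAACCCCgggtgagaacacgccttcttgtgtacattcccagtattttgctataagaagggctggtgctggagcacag
Il6: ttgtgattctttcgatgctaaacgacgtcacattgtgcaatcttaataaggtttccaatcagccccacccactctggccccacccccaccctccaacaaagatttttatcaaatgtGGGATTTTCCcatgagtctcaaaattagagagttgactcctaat

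In the 300 bases from 250 before to 50 after each start, the NF-κB motif was found on either strand in 5 of the 11 higher members that had a promoter in the table (45.5%). Among all tested members of the list it was 7 of 18 (38.9%), so the motif goes with the list more than with the call. The share was 5.04% over the 12807 tested genes with a promoter and 4.35% over all 27025 promoters. It was 6.82% over all genes called higher and 6.14% over all called lower. A match describes letters in this window and not a bound site. ACGTG or GCGTG, the core of the hypoxia response element, was found in 56.4% of promoters of genes called higher, in 52.3% of those called lower and in 59.7% of those tested.

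Ccl20, a chemokine for lymphocytes and dendritic cells, read 5.73, 6.04 and 6.23 CPM in Scrambled and 45.4, 44.5 and 43.6 CPM in IAMP-siR-1 (log2 fold change 2.89 ± 0.06 SE, adjusted p = 1.5e-15, edgeR). Cxcl3, a neutrophil chemokine, read 6.75, 6.97 and 7.63 CPM against 38.9, 35.1 and 39.9 CPM. Il6, the cytokine that drives the acute-phase response, read 278, 251 and 252 CPM against 515, 498 and 542 CPM, a 1.99-fold rise. The gap was several times the spread within a group in each case.

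The other neutrophil chemokines of the CXC family rose as well. Cxcl5 read 1021, 957 and 1004 CPM against 2688, 2529 and 2717 CPM, and Cxcl1 read 342, 310 and 308 CPM against 624, 607 and 651 CPM. Cxcl2 rose 2.78-fold. Ccl7, a monocyte chemokine, read 255, 250 and 259 CPM against 873, 865 and 908 CPM. Csf2, which encodes GM-CSF, read 2.30, 2.57 and 2.25 CPM against 11.8, 12.4 and 11.99 CPM. Mmp3, the protease stromelysin-1, read 398, 396 and 441 CPM against 1489, 1424 and 1556 CPM, a 3.62-fold rise, and Mmp13, a collagenase, rose 4.93-fold. Lcn2, an iron-sequestering lipocalin, rose 2.71-fold.

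Low levels limited 4 of the 16 higher members. S100a8, a calcium-binding alarmin best known from neutrophils, held 16, 9 and 0 estimated counts in Scrambled and 42, 37 and 25 in IAMP-siR-1. Its call (adjusted p = 0.014, edgeR) was lost in the 6 libraries alone and without IAMP-siR-1 library 1, where the adjusted p was 0.056 and 0.054. Ccl11, the eosinophil chemokine eotaxin, held 21, 15 and 12 estimated counts against 53, 91 and 59. Tnf and Mmp9 were not called with Scrambled libraries 1 and 3 left out, although their log2 fold changes stayed positive at 1.35 and 1.59.

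Cxcl10 was the one member called lower. It is a T cell chemokine that interferons induce, and it read 55.8, 37.3 and 19.6 CPM in Scrambled and 7.51, 9.06 and 11.9 CPM in IAMP-siR-1 (adjusted p = 0.0094, edgeR). It overlaps the opposite-strand gene Art3. Among the 8 members not called, Ccl2, a monocyte chemokine, had a log2 fold change of −0.21 and Ptgs2, the inducible cyclooxygenase, of 0.52.

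Over the whole CXC chemokine list, 5 of 11 tested members were higher and 2 lower. The lower ones were Cxcl10 and Pf4, platelet factor 4, which read 10.7, 10.1 and 10.3 CPM against 6.48, 5.48 and 6.04 CPM. Among CC and CX3C chemokines, 4 of 16 were higher and 3 lower, the latter being Ccl6, Ccl17 and Cx3cl1. Ccl8, a monocyte chemokine, read 0.829, 0.755 and 1.56 CPM against 3.10, 2.31 and 2.69 CPM. Chemokines thus moved in both directions.

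On the receptor side few genes passed the fold cut-off. Of 19 members of the IL-17 receptor and feedback list, 2 were higher and 1 lower, against 5.58% and 7.97% of all genes tested. The adjusted p alone was passed by 7 members upward and 8 downward, against 42.27% of all genes. Il17ra, the shared receptor subunit, read 54.0, 55.6 and 55.6 CPM against 87.0, 86.3 and 80.4 CPM, a 1.54-fold rise. Tnfaip3, which encodes A20, a brake on NF-κB, read 31.1, 27.1 and 28.5 CPM against 51.3, 49.8 and 50.1 CPM. Arid5a, an RNA-binding protein that stabilises Il6 messenger RNA, read 27.9, 25.7 and 24.1 CPM against 15.5, 16.4 and 16.0 CPM, a 1.62-fold fall.

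Tnfaip3 was also the 1 gene called among 23 NF-κB subunits and feedback regulators. Of 19 further NF-κB target genes, 5 were higher and 4 lower, with a median log2 fold change of −0.21. Saa3, an acute-phase protein, read 0.439, 0.315 and 0.697 CPM against 3.15, 2.68 and 2.99 CPM, and Sod2, the mitochondrial superoxide dismutase, rose 2.15-fold. Sele, which encodes the leukocyte adhesion molecule E-selectin, read 106, 101 and 103 CPM against 43.7, 41.8 and 43.5 CPM. Il15, a cytokine for T and NK cells, fell 3.97-fold. Targets of NF-κB did not move one way as a list.

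In the IL-6 family, 2 of 14 members were higher and 2 lower. Clcf1, a gp130 ligand, read 24.1, 23.2 and 23.1 CPM against 52.9, 51.9 and 52.1 CPM, while Il11, a profibrotic cytokine of the same family, fell 2.15-fold. Socs3, a feedback inhibitor of gp130 signalling, read 30.7, 30.7 and 28.2 CPM against 16.9, 15.0 and 15.5 CPM. In the IL-1 family, 2 of 11 were higher and 1 lower. Il1a, an alarmin cytokine, read 0.514, 0.697 and 0.754 CPM against 2.86, 2.18 and 3.36 CPM. Il1rap, the accessory chain of the IL-1 and IL-33 receptors, read 160, 160 and 160 CPM against 348, 345 and 336 CPM. Il18, a cytokine of the inflammasome pathway, fell from 0.656 to 0.697 CPM down to 0.0719 to 0.208 CPM.

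Interferon-stimulated genes were lower with IAMP-siR-1. Interferons switch these genes on through a promoter sequence whose core is GAAANNGAA, and they encode antiviral effectors. Of 28 tested, 24 were called lower and none higher, with a median log2 fold change of −1.39. The summed level was 1744, 1983 and 1158 CPM in Scrambled and 839, 697 and 759 CPM in IAMP-siR-1. Scrambled library 3 was the lowest of its group and library 2, which held few liver transcripts, the highest. Against Scrambled library 2 alone the median was −1.68. That library was the highest of its group, so this comparison cannot show that the fall holds without the others. In 24 of the 28 members every IAMP-siR-1 library lay below every Scrambled library, against 26.8% of all genes tested. Promoters of 2 members are shown with GAAANNGAA, or its reverse complement, in capitals, at chr12:26456453-26456612 on the minus strand for Rsad2 and chr19:34583369-34583528 on the plus strand for Ifit3.
Rsad2: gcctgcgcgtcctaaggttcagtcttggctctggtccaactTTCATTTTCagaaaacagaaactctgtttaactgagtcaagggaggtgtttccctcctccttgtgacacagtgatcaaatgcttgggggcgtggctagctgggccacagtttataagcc
Ifit3: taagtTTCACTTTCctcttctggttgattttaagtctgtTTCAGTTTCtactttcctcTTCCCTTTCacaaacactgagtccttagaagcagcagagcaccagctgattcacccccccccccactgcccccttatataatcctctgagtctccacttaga

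GAAANNGAA was found on either strand in 12 of the 17 lower members with a promoter (70.6%), against 7.19% of tested genes and 8.57% of all promoters. Among all tested members of the list it was 15 of 21 (71.4%), so the motif does not set the lower members apart. The members that were not called were Ifit2, Bst2, Gbp2 and Gbp3. Ifit3, an inhibitor of viral translation, read 217, 254 and 124 CPM in Scrambled and 74.0, 66.1 and 71.7 CPM in IAMP-siR-1 (log2 fold change −1.49 ± 0.27 SE, adjusted p = 0.0041, edgeR). Ifit3b fell 3.95-fold, and Oas2 and Oasl1, of the oligoadenylate synthetase family, fell 3.55-fold and 3.61-fold. Irf7, which amplifies the response, had a log2 fold change of −1.13.

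Interferons also raise the antigen-presentation machinery. In the MHC class I list, 6 of 18 members were lower and none higher. The summed level of the list overlapped between groups, at 1641, 1750 and 1513 CPM in Scrambled and 1594, 1417 and 1459 CPM in IAMP-siR-1. Psmb9 and Psmb8, subunits of the immunoproteasome, read 2.40, 2.96 and 1.96 CPM against 0.755, 0.470 and 0.421 CPM and 14.5, 16.9 and 10.7 CPM against 5.72, 4.70 and 5.19 CPM. Tap1 and Tap2, the peptide transporter, fell 2.31-fold and 1.78-fold. Psmb9 and Tap1 are neighbours that overlap, and the calls of H2-Q4 and Nlrc5 did not survive the loss of single libraries.

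Cell-cycle genes formed the other large block of falls. Of 30 mitosis genes, 29 were called lower and none higher, with a median log2 fold change of −0.73. The exception was Aurka, at −0.43. The list summed to 2720 to 2793 CPM in Scrambled and 1552 to 1664 CPM in IAMP-siR-1. Mitotic promoters often carry CCAAT boxes, which NF-Y binds, and that of Ccnb2, at chr9:70421555-70421714 on the minus strand, is shown with its 3 matches in capitals.
Ccnb2: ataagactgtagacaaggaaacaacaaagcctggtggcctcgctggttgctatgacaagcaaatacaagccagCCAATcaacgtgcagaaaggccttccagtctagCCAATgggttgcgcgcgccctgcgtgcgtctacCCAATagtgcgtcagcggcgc

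CCAAT was found on either strand in 20 of the 24 lower members with a promoter (83.3%), against 38.3% of tested genes and 37.9% of all promoters. Among all tested members of the list it was 21 of 25 (84%), so this share too describes the list. Ccnb2, a mitotic cyclin, read 67.0, 67.5 and 66.1 CPM in Scrambled and 30.3, 29.0 and 29.4 CPM in IAMP-siR-1 (log2 fold change −1.18 ± 0.04 SE, adjusted p = 1.3e-12, edgeR). Plk1, the kinase of mitotic entry, read 88.6, 90.9 and 90.5 CPM against 47.9, 45.7 and 44.5 CPM. Hmmr, Kif20a, Kif23 and Dlgap5, all of the mitotic spindle, fell by 1.88-fold to 2.27-fold. Mki67, the proliferation marker Ki-67, had a log2 fold change of −0.83.

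Of 30 DNA replication genes, 14 were lower and none higher, with a median of −0.53. Mcm5, of the replicative helicase, read 77.5, 73.0 and 77.3 CPM against 38.3, 35.7 and 35.3 CPM, and Mcm2, Mcm6 and Mcm7 fell 1.66-fold to 1.81-fold. Mcm7 overlaps Cops6. Of 16 CDK inhibitors and cyclins, 5 were lower. Ccnd1, the cyclin of the passage from G1 to S phase, read 1049, 1042 and 1052 CPM against 282, 273 and 264 CPM, a 3.84-fold fall (log2 fold change −1.94 ± 0.03 SE, adjusted p = 2.5e-17, edgeR). Bulk libraries do not separate fewer cycling cells from less RNA per cell.

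NRF2 is a transcription factor of antioxidant genes. Of 28 of its targets tested, 12 were called higher, 16 were not called and none was called lower, with a median log2 fold change of 0.46. Hmox1, heme oxygenase 1, read 255, 280 and 266 CPM in Scrambled and 1686, 1722 and 1633 CPM in IAMP-siR-1, a 6.3-fold rise (log2 fold change 2.65 ± 0.04 SE, adjusted p = 7.1e-18, edgeR). Taldo1, of the pentose phosphate pathway, read 55.3, 50.6 and 49.9 CPM against 193, 184 and 184 CPM. Gclm, which limits glutathione synthesis, and Srxn1, a sulfiredoxin, rose 2.13-fold and 2.16-fold. Nqo1, a classic NRF2 target, had a log2 fold change of 0.05 and was not called. Among the reactive oxygen enzymes, 2 of 18 were higher (Sod2 and Prdx6) and 1 lower (Cybb).

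HIF-1α is regulated largely at the protein level, and the chaperone HSP90 stabilises it. In the full comparison, none of 20 genes of the HIF machinery and none of 22 heat-shock chaperones was called. DESeq2 called none of them either, while 11 and 17 had an unadjusted p under 0.05 in edgeR, with changes below the fold cut-off. For the chaperones the absence of calls did not hold once the Scrambled libraries with liver transcripts were left out. That fit keeps 1 Scrambled library, and the median log2 fold change of the chaperones was 0.02 in it and 0.03 in the full comparison. Hif1a read 328, 326 and 330 CPM against 433, 422 and 420 CPM, a 1.3-fold difference below the fold cut-off (log2 fold change 0.37 ± 0.02 SE, adjusted p = 2.0e-09, edgeR). Hsp90aa1 differed by −0.01 on the log2 scale (adjusted p = 0.88) and Hsp90ab1 by 0.01 (adjusted p = 0.83, edgeR).

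Targets of HIF-1 were read as 2 lists. Of 21 glycolysis genes, 1 was higher, Pfkl, a phosphofructokinase, which read 61.1, 63.9 and 66.3 CPM against 107, 108 and 103 CPM. The median of these 21 was 0.20. Of 30 other targets, 9 were higher and 5 lower, with a median of 0.24. The largest rise among them was that of Hmox1 (log2 fold change 2.65), which is also counted among the NRF2 targets above. Lox, a collagen cross-linking enzyme, read 1152, 1238 and 1236 CPM against 2718, 2799 and 2766 CPM. Nos2, the inducible nitric oxide synthase, and Ndrg1, a stress-induced protein, rose 2.45-fold and 2.29-fold. Plod2, a collagen lysyl hydroxylase, read 380, 379 and 395 CPM against 157, 157 and 154 CPM, and Pgf, placental growth factor, read 24.5, 25.2 and 24.4 CPM against 7.01, 7.60 and 7.19 CPM. HIF-1 targets thus included clear rises and clear falls.

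**Figure D3:**
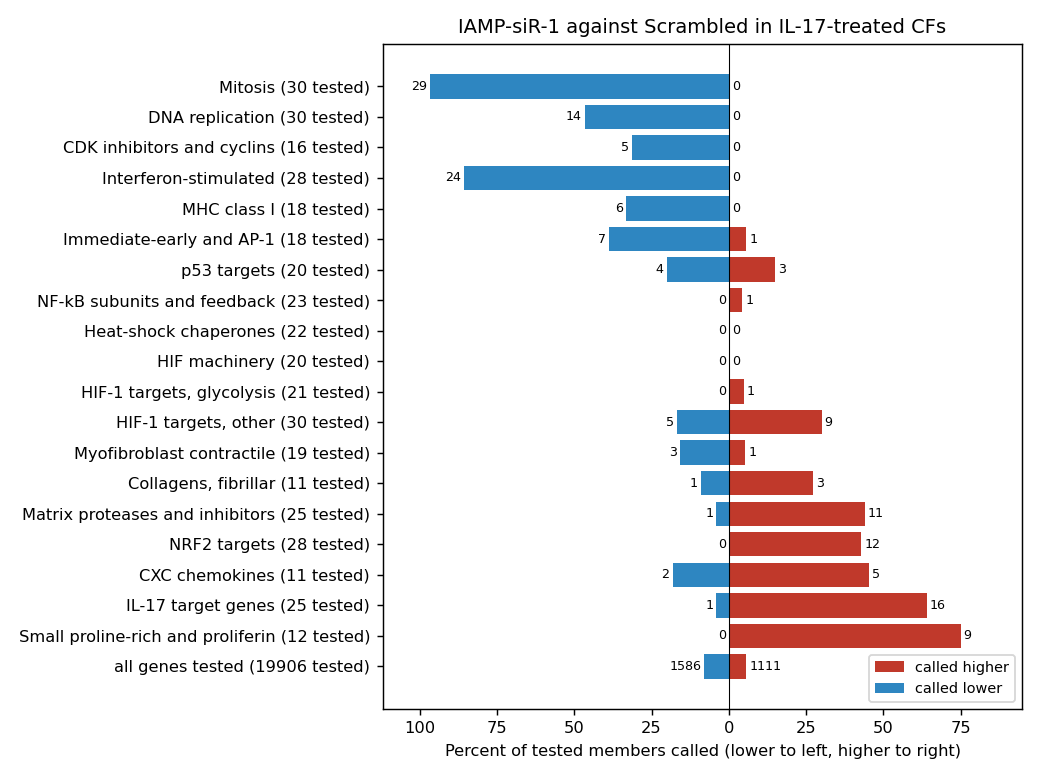
Percent of tested members called lower (to the left) and higher (to the right) in 19 gene lists and over all genes tested, with the number of members beside each bar. Mitosis (29 of 30 lower) and interferon-stimulated genes (24 of 28 lower) lie at one side and IL-17 target genes (16 of 25 higher) at the other, against 1586 lower and 1111 higher of all 19906 genes.

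Of 25 matrix proteases and inhibitors, 11 rose, 1, Mmp15, fell and 13 were not called, with a median of 0.33. Without Scrambled libraries 1 and 3 the numbers were 8 and 0. Adamts12, a secreted metalloprotease, read 9.53, 10.5 and 10.2 CPM against 63.8, 67.5 and 63.5 CPM, a 6.46-fold rise. Mmp8, a collagenase, read 0.655, 0.888 and 0.779 CPM against 3.98, 4.13 and 3.53 CPM. The inhibitor Timp1 had a log2 fold change of 0.61. Adamts15, at 0.0492 to 0.158 CPM in Scrambled, was not called without Scrambled libraries 1 and 3.

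Structural matrix genes were called in both directions, where 5.58% of all genes tested were higher and 7.97% lower. Of 11 fibrillar collagens, 3 were higher and 1 lower. Col3a1 read 2782, 2816 and 2756 CPM against 5578, 5298 and 5339 CPM, and Col5a2 read 2340, 2355 and 2359 CPM against 4163, 4170 and 4094 CPM. Col27a1 fell 2.01-fold. Of 19 other collagens, 2 were higher and 3 lower. Col12a1, which associates with fibrils, read 502, 490 and 526 CPM against 1332, 1364 and 1251 CPM, whereas Col6a3, of the microfibrillar collagen VI, read 80.7, 76.8 and 81.9 CPM against 32.0, 27.8 and 31.2 CPM. Both lysyl oxidases called, Lox and Loxl1 of 5, were higher.

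Of 21 matricellular genes, 5 were higher and 1 lower, Mfap4, which overlaps Mapk7, rising 2.98-fold and Fbn2, a fibrillin, falling 3.67-fold. Of 21 proteoglycan and hyaluronan genes, 6 were higher and 4 lower. Cd44, the hyaluronan receptor, read 491, 477 and 498 CPM against 903, 881 and 903 CPM, and Aspn, asporin, fell 2.03-fold. Myofibroblast contractile genes gave 1 higher and 3 lower of 19, against 5.58% and 7.97% of all genes tested, with a median of 0.04. Myl9, a myosin light chain of contractile cells, read 62.4, 63.5 and 64.1 CPM against 27.4, 23.7 and 28.5 CPM, while Acta2, smooth-muscle actin, had a log2 fold change of 0.26 and was not called. In the integrins, 3 of 17 were higher and 3 lower, by at most 0.74 on the log2 scale.

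Of 15 coagulation and fibrinolysis genes, 4 were higher and 2 lower. Besides F3, F2r, the thrombin receptor PAR-1, rose from 144, 155 and 152 CPM to 421, 437 and 426 CPM. Serpinb2, which encodes a protease inhibitor, rose from 11.5, 9.89 and 11.5 CPM to 62.8, 56.9 and 62.9 CPM. Both genes called lower encode plasminogen activators. Plat, tissue plasminogen activator, read 141, 141 and 145 CPM against 63.3, 62.9 and 69.1 CPM, and Plau, urokinase, read 97.5, 102 and 98.0 CPM against 40.7, 39.7 and 38.5 CPM. Of 14 complement genes, 3 were higher and none lower. C3, the central component, read 80.0, 60.7 and 79.8 CPM against 164, 142 and 160 CPM. Of 17 prostaglandin genes, 3 were higher, including Ptges, a prostaglandin E synthase.

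Small proline-rich and proliferin genes had the highest share of rises, 9 of 12, with a median of 1.81, though Sprr2 and Prl2c copies are hard to tell apart. Sprr2g, an epithelial barrier protein, read 0.448, 0.722 and 0.516 CPM against 3.91, 3.76 and 3.10 CPM. Without Scrambled libraries 1 and 3, 8 of 12 were called, and Sprr2k was lost.

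Signalling lists are set beside the shares of all genes tested, 5.58% higher and 7.97% lower. In TGF-β and BMP signalling, 6 of 31 were higher and 4 lower. Secreted BMP antagonists Grem1 and Nog rose, and Tgfbr1, the type I TGF-β receptor, read 135, 130 and 139 CPM against 52.0, 50.6 and 48.4 CPM. Among WNT ligands and antagonists, 5 of 18 were higher and 3 lower. Dkk2, a modulator of WNT receptors, read 1.10, 1.01 and 1.05 CPM against 5.09, 4.43 and 4.12 CPM, and Axin2, a WNT target, fell 2.47-fold. In the IGF axis, 3 of 11 were higher, all of them IGF-binding proteins. Igfbp5 read 2.85, 3.02 and 3.46 CPM against 14.7, 10.4 and 15.5 CPM.

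Among angiogenic factors, 3 of 13 were higher and 3 lower. Kitl, the ligand of the KIT receptor, read 61.6, 61.7 and 61.9 CPM against 153, 161 and 154 CPM, and Angpt1, an endothelial stabilising factor, fell 2.69-fold. EGF receptor and ligand genes gave 1 higher (Nrg1) and 1 lower (Hbegf) of 11, against 5.58% and 7.97% of all genes tested. In the TNF family, 3 of 18 were higher and 3 lower. Tnfsf11, which encodes RANKL, read 2.43, 2.09 and 2.84 CPM against 0.558, 0.660 and 0.663 CPM.

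Of 18 immediate-early genes, 7 were lower and 1 higher, with a median of −0.41. Egr1, a growth-factor-induced transcription factor, read 115, 126 and 108 CPM against 55.8, 47.0 and 42.8 CPM, and Fos fell 2.32-fold. Dusp1, a phosphatase that ends MAP kinase signals, fell 2.36-fold and overlaps Ergic1. Of 20 p53 targets, 3 were higher and 4 lower. Trp53inp1, an autophagy and cell-death regulator, read 158, 163 and 165 CPM against 40.8, 40.7 and 41.2 CPM.

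Of 26 cholesterol-synthesis genes, 1 was higher, Insig1, and 1 lower, Hmgcs1, against 5.58% and 7.97% of all genes tested. Of 24 fatty-acid genes, 1 was higher, Ppara, whose call was lost without Scrambled libraries 1 and 3, and 1 lower, Pdk4. None of 22 nuclear genes of the respiratory chain was called by edgeR or DESeq2, and 14 had an unadjusted p under 0.05. In the unfolded-protein and ATF4 list, 4 of 24 were higher and 2 lower. Hyou1, a chaperone of the endoplasmic reticulum, rose 1.82-fold, and Psat1, of serine synthesis, fell 2.31-fold. Of 18 clock genes, 1 was higher and 5 lower. Hlf read 0.871, 0.838 and 0.754 CPM against 3.59, 2.34 and 2.90 CPM, and Clock read 99.7, 93.5 and 98.9 CPM against 57.2, 54.0 and 52.5 CPM.

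Markers of CFs and of other cells gave the following picture. Of 24 CF identity genes, 2 were higher and 4 lower. Tbx20, a cardiac transcription factor, read 1083, 1081 and 1074 CPM against 603, 627 and 637 CPM, and Thy1, a fibroblast surface antigen, read 249.5, 257 and 247 CPM against 141, 140 and 135 CPM, while Pdgfra and Dcn had log2 fold changes of 0.00 and 0.06. Mural cell markers summed to 174 to 179 CPM in Scrambled and 108 to 114 CPM in IAMP-siR-1, with 3 of 7 lower, among them Notch3 and Mcam. Endothelial markers summed to 632 to 664 and 603 to 615 CPM (1 of 12 lower, Kdr), macrophage markers to 70.3 to 71.9 and 74.95 to 79.8 CPM (1 of 16 higher and 2 lower), cardiomyocyte markers to 624 to 644 and 683 to 716 CPM (1 of 8 higher and 1 lower), and epicardial and mesothelial markers to 110 to 114 and 108 to 110 CPM (0 of 8 called by edgeR or DESeq2, 3 with an unadjusted p under 0.05). Although the cardiomyocyte sum was higher with IAMP-siR-1, the median log2 fold change of the 8 tested members was −0.55. The higher call was Ryr2, at means of 0.121 CPM in Scrambled and 0.372 CPM in IAMP-siR-1. The lower call was Tnnt2, at 71.6 and 33.1 CPM. Ptprc, which defines leukocytes, lay at 0.590 ± 0.0943 CPM in Scrambled. Neutrophil markers summed to at most 1.31 CPM, with S100a8 and Camp higher of 3 tested, erythroid markers to at most 1.53 CPM, with Hba-a2 lower of 2, and no adipocyte marker was expressed enough to be tested. The part of other cells in the results was not tested.

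The same siRNA was also compared with Scrambled in untreated and in TGF-β-treated CFs, which share no library with the IL-17 set. Liver transcripts also occurred there, with 5064 estimated counts of Alb in untreated Scrambled library 3 and 1796 in TGF-β IAMP-siR-1 library 2. In untreated CFs 1066 genes (5.42%) were higher and 1308 (6.65%) lower. Of the IL-17 calls, 668 of the higher genes and 983 of the lower genes were called the same way without IL-17, which is 60.1% and 62% of the IL-17 calls and 62.7% and 75.2% of the untreated calls. Opposite calls numbered 2 and 1. In TGF-β-treated CFs 487 genes (2.45%) were higher and 380 (1.91%) lower, and 240 and 187 of the IL-17 calls recurred there, which is 21.6% and 11.8% of the IL-17 calls and 49.3% and 49.2% of the TGF-β calls. Opposite calls numbered 5 and 23. In all 3 settings 174 genes were higher and 168 lower, and 377 and 584 passed the call in the IL-17 set and not in the others, which does not by itself show that the effects differ.

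Hmox1 rose in each setting. It read 235 to 242 CPM against 1434 to 1493 CPM in untreated CFs and 281 to 291 CPM against 1205 to 1233 CPM under TGF-β. Il6 read 18.7 to 20.2 CPM against 48.4 to 49.6 CPM in untreated CFs, and Mmp3 read 376 to 433 CPM against 1317 to 1422 CPM. The log2 fold change of Il6 was 1.33 untreated, 0.99 under IL-17 and 0.80 under TGF-β, and that of Mmp3 was 1.80, 1.86 and 0.80.

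The gene lists differed in how they recurred. Mitosis genes were lower in 29 of 30 cases in untreated CFs and in 18 under TGF-β, and IL-17 target genes were higher in 14 cases in untreated CFs and in 16 under TGF-β. Interferon-stimulated genes were lower in 2 cases in untreated CFs, and 3 were higher under TGF-β. Their summed level in untreated CFs was 1312, 800 and 1070 CPM in Scrambled and 852, 673 and 1202 CPM in IAMP-siR-1, so that these groups overlapped, and under TGF-β it was 6710 to 7791 CPM against 8507 to 9858 CPM. The difference between the IL-17 and untreated effects was negative for 27 of 28 interferon-stimulated genes, with a median of −0.96, but none passed the interaction test, the lowest adjusted p being 0.125 (edgeR).

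**Figure D4:**
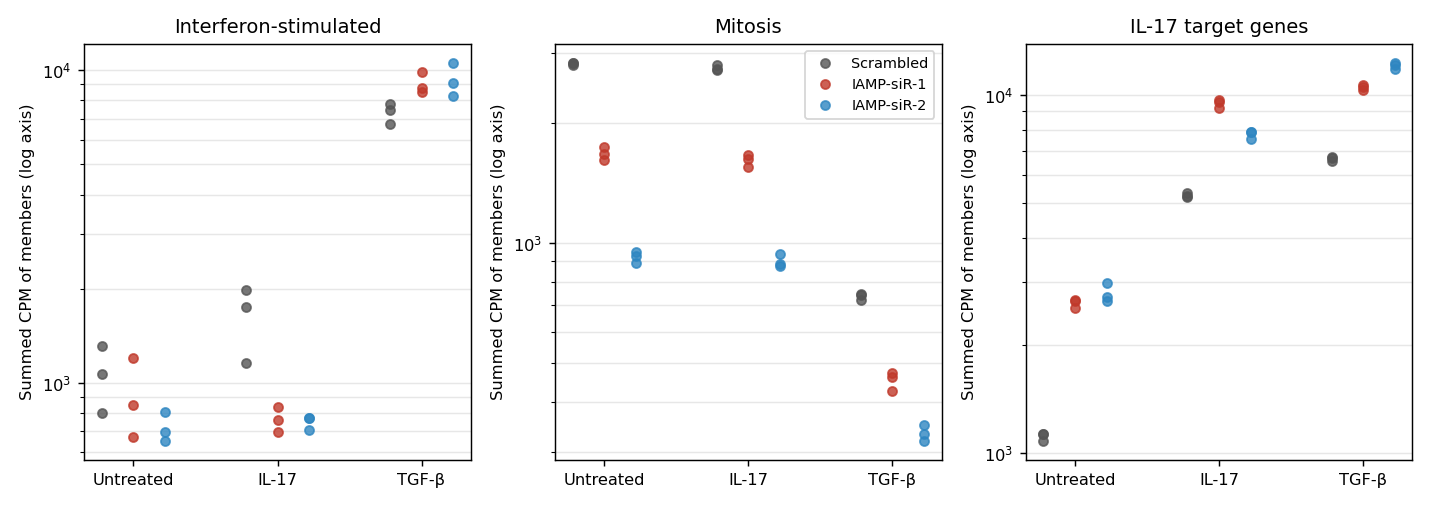
Summed CPM of 3 gene lists (log axes) in untreated, IL-17-treated and TGF-β-treated CFs, 1 point per library and 1 colour per siRNA group. The 3 settings were normalised separately, so levels are comparable within a setting. Interferon-stimulated genes separate Scrambled (1158 to 1983 CPM) from IAMP-siR-1 (697 to 839 CPM) under IL-17 and overlap in untreated CFs, whereas mitosis genes are lower and IL-17 target genes higher in every setting.

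The effects of IAMP-siR-1 with and without IL-17 were also compared gene by gene. In the test of the difference itself, 19 of 21219 genes (0.0895%) had a higher and 21 (0.099%) a lower effect under IL-17, where the adjusted p had to be 0.05 or less and the difference 1 or more on the log2 scale. In 7 of the 19 and 4 of the 20 that were also tested in the IL-17 set, a whole group held no library above 18 estimated counts, so that their fold changes rest on few read pairs. Tnfaip3 rose under IL-17 and read 18.6, 21.8 and 20.0 CPM against 17.3, 16.8 and 17.6 CPM in untreated CFs. Socs3 fell under IL-17 and read 15.9, 13 and 16.1 CPM against 18.1, 15.5 and 17.5 CPM in untreated CFs. Cxcl5 rose in both, with a larger fold in untreated CFs, where it read 29.8, 29.8 and 28.0 CPM against 284, 285 and 275 CPM.

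**Figure D5:**
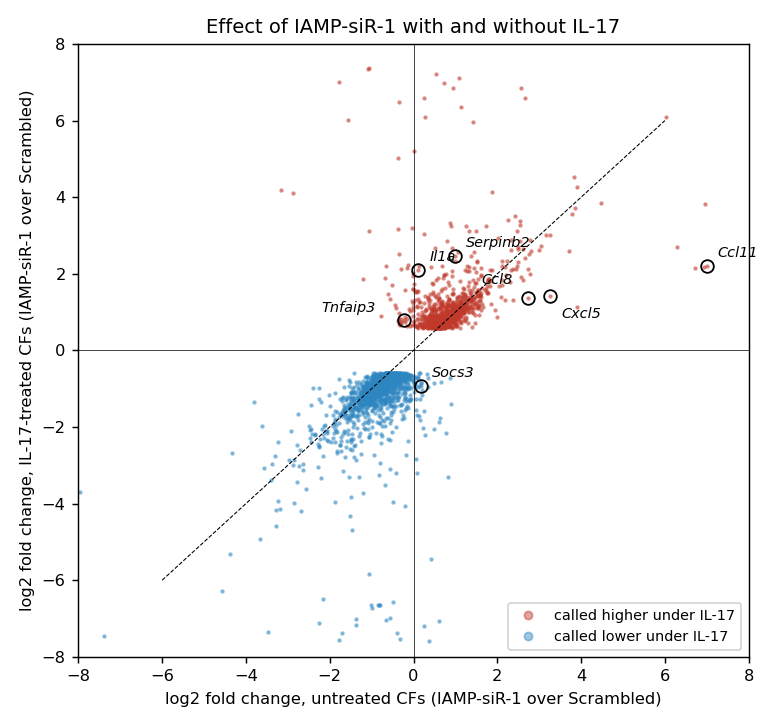
Log2 fold change of IAMP-siR-1 over Scrambled in IL-17-treated CFs (vertical) against untreated CFs (horizontal) for 2630 genes called under IL-17, with 3 genes outside the axes; the dashed line marks equal change and circles mark 7 named genes whose effects differed by at least 1 on the log2 scale and passed the test. Most points lie in the quadrants of equal sign, and Cxcl5 has 1.41 under IL-17 against 3.27 untreated.

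IAMP-siR-2 shares the Scrambled libraries, so its values are set beside those of IAMP-siR-1 without a measure of overlap. Against Scrambled, IAMP-siR-2 raised 1605 genes (8.06%) and lowered 2718 (13.7%). Mitosis genes were lower in 30 of 30 cases, interferon-stimulated genes in 26 of 28, and IL-17 target genes were higher in 14 and lower in 3 of 25. The siRNAs were compared directly, without Scrambled, and 1208 genes (6.07%) were higher and 1914 (9.62%) lower with IAMP-siR-2.

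Cxcl1 is a case in which the siRNAs moved a gene in opposite directions. It read 203, 192 and 197 CPM with IAMP-siR-2, below the 308 to 342 CPM of Scrambled and the 607 to 651 CPM of IAMP-siR-1 (log2 difference between the siRNAs −1.67, adjusted p = 3.6e-15, edgeR). Il6 rose with both, to 793, 744 and 780 CPM with IAMP-siR-2, and so did Mmp3, to 1606, 1598 and 1682 CPM. Ccl20 reached 11.5, 10.9 and 12.04 CPM with IAMP-siR-2 against 43.6 to 45.4 CPM with IAMP-siR-1, and Hmox1 reached 508, 522 and 541 CPM against 1633 to 1722 CPM. Rab3c read 0.200, 0.162 and 0.104 CPM with IAMP-siR-2, overlapping Scrambled. Ccnd1 read 242, 254 and 243 CPM and Ackr4 1.30, 1.91 and 1.64 CPM with IAMP-siR-2. Cx3cl1 fell further, to 10.7, 10.2 and 13.4 CPM (log2 difference between the siRNAs −0.71, adjusted p = 6.3e-05, edgeR).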

How the data were processed

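The authors enriched polyadenylated RNA, trimmed reads with cutadapt, aligned them with HISAT2 to GRCm38 and quantified genes with StringTie; they tested with DESeq2. The deposited tables hold whole-number estimated counts per gene, not normalised, for 55487 genes, in 1 table each for untreated, IL-17-treated and TGF-β-treated CFs. No strand setting was stated. A read pair was worth about 6 estimated counts, and the floor was 3 read pairs, or 18 estimated counts. The floor covers counting error only, while the SEs come from the test and include the spread between libraries.

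The 9 IL-17 libraries (3 per group) were fitted together with edgeR 4.0.16 in R 4.3.3 (filterByExpr, TMM, robust quasi-likelihood test), and p-values were adjusted over all genes tested by Benjamini-Hochberg. The estimated counts were used as deposited. The effect of IAMP-siR-1 with and without IL-17 was compared in 1 fit of 18 libraries. The test was checked on simulated data: of 100 genes changed by 1 on the log2 scale, 95 of the IL-17 comparison were recovered, and of 100 changed by 2, 100 were. For the difference between IL-17 and untreated effects, at the 1.5-fold cut-off, 86 and 99 were recovered. The differences reported above needed at least 1 on the log2 scale, and recovery at that stricter cut-off was not examined. Unchanged genes called numbered 4 and 3 in these 2 comparisons. The simulated spread was the trend for each expression level, so recovery of genes with more scatter was not examined. Alternatives included DESeq2 1.42.0, other size factors, filters and thresholds, and fewer libraries.

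The comparison and the gene lists were chosen with earlier results of these data known, so counts over lists are descriptions and no list was tested. Named genes were the target, the 12 largest rises and falls with at least 1 CPM, groups that did not overlap and a change of about 1.5-fold or more in the same direction against Scrambled library 2 alone, predicted models left out, 6 genes that the study singles out, and up to 6 called members of each list; other members were named after their values were seen, and the GAAANNGAA and CCAAT motifs were added likewise. Promoters came from RefSeq. Gene positions followed GENCODE vM21, which 346 genes did not match. Results for a few genes are not reported here.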

Additional observations from a re-analysis of the deposited data

Results flagged for a closer look

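Of the named genes, 7 had an effect of IAMP-siR-1 that differed by at least 1 on the log2 scale between IL-17-treated and untreated CFs and passed the test of the difference itself (edgeR, adjusted over 21219 genes, 3 libraries per group). Tnfaip3 rose under IL-17 (log2 fold change 0.80) and had −0.22 untreated, a difference of 1.03 ± 0.08 SE (adjusted p = 6.7e-09). Socs3 went the other way, −0.92 under IL-17 and 0.19 untreated, a difference of −1.11 ± 0.10 SE (adjusted p = 1.7e-07). Both encode feedback inhibitors. Other named genes passed the test with smaller differences, such as Sod2 at 0.61 (adjusted p = 8.1e-08, edgeR) and Il6 at −0.34 (adjusted p = 0.0010, edgeR).

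Serpinb2 rose more under IL-17 (2.47 against 0.99, a difference of 1.48 ± 0.16 SE, adjusted p = 2.6e-05). Cxcl5 rose less under IL-17 than without (1.41 against 3.27, a difference of −1.86 ± 0.06 SE, adjusted p = 6.2e-17). Ccl8 behaved likewise, 1.36 against 2.74, a difference of −1.37 ± 0.33 SE (adjusted p = 0.026).

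Il1a rose under IL-17 (2.09) with 0.11 untreated, a difference of 1.98 ± 0.45 SE (adjusted p = 0.015), and the untreated libraries held 7 to 17 estimated counts, at or under the floor of 18. Ccl11 had a difference of −4.80 ± 1.17 SE (adjusted p = 0.028), but it held 0 estimated counts in each untreated Scrambled library and 9, 10 and 27 in untreated IAMP-siR-1, so that its untreated fold change depends on the prior count and is no measure of size.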

How the results depend on the processing

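The fold change of 4930523C07Rik and the numbers of higher and lower genes stayed within 1.5 times their values under DESeq2, other size factors, other filters, the 6 libraries alone, read-pair units and hepatocyte markers left out, as did the counts of the lists with the most calls under DESeq2, other size factors and fewer libraries. DESeq2 called 1139 genes higher and 1710 lower, 1033 and 1547 of them shared with edgeR. With a cut-off of 2-fold in place of 1.5-fold, 474 genes were higher, 684 lower and 1284 different between the siRNAs, and 531 and 98 IL-17 calls recurred in untreated and TGF-β-treated CFs in place of 1651 and 427. A cut-off of 1.5-fold for the difference from untreated CFs gave 45 and 50 genes in place of 19 and 21. The lower effects fell to 12 without Scrambled libraries 1 and 3, and leaving out single libraries gave 12 to 23, the lowest without untreated IAMP-siR-1 library 1. Same-numbered libraries did not deviate together (r of −0.006, −0.019 and −0.007), and r was −0.006 to 0.013 between different numbers. Values near 0 over genes that include many at few read pairs give no sign of pairing but cannot exclude it. With the replicate block the number of genes higher with IAMP-siR-1 under IL-17 was 1057 and of genes lower with IAMP-siR-1 under IL-17 1544. The Hpx log2 fold change turned to 0.0695 without Scrambled libraries 1 and 3. Over 221 named genes apart from the target, 3188 of 3288 values under alternatives kept direction and call, 99 kept direction and lost the call, and 1 changed sign. The lost calls lay mostly in hepatocyte genes and in genes near the cut-off or at a few read pairs. Leaving Scrambled libraries 1 and 3 out keeps 1 Scrambled library, whose spread is taken from the other groups.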

Other observations

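Further families were looked at after the values were known, and are given as descriptions. Of 10 guanylate-binding proteins tested, interferon-induced GTPases, 7 were lower with IAMP-siR-1 under IL-17 and none higher, with a median log2 fold change of −1.71 (−1.50 against Scrambled library 2 alone) and −0.34 in untreated CFs. Of 6 Schlafen genes, which are also induced by interferon, 4 were lower. The metal-binding metallothioneins Mt1 and Mt2 were both higher of 3 tested. Of 38 histone genes, 9 were lower and none higher.

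Bach1, which encodes a known repressor of Hmox1, read 96.5, 95.2 and 96.1 CPM in Scrambled and 31.5, 34.5 and 30.4 CPM in IAMP-siR-1, a 2.99-fold fall (log2 fold change −1.58 ± 0.04 SE, adjusted p = 1.6e-14, edgeR). With IAMP-siR-2 it read 114, 115 and 116 CPM, and the siRNAs differed by 1.84 on the log2 scale (adjusted p = 1.7e-15, edgeR). In untreated CFs IAMP-siR-1 gave −1.32. Under TGF-β it gave −0.42 for Bach1, below the fold cut-off, and 2.09 for Hmox1. With IAMP-siR-2 under IL-17 the log2 fold change against Scrambled was 0.26 for Bach1 and 0.97 for Hmox1. A part of Bach1 in the rise of Hmox1 was not tested. Tlr4, the receptor for bacterial lipopolysaccharide, rose from 35.2, 37.7 and 39.7 CPM to 77.0, 76.4 and 73.9 CPM with IAMP-siR-1. With IAMP-siR-2 it read 33.3, 31.5 and 30.4 CPM, a log2 fold change of −0.24 against Scrambled. This value and the 0.26 of Bach1 with IAMP-siR-2 lay below the fold cut-off. Whether these genes are reached through 4930523C07Rik or through another transcript that one siRNA also lowers was not tested.

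Ptx3, a soluble pattern-recognition protein of stromal cells, read 538, 541 and 539 CPM against 1948, 1928 and 1919 CPM, and 2040, 2083 and 2056 CPM with IAMP-siR-2. Pdpn, the fibroblast activation marker podoplanin, read 242, 244 and 244 CPM against 608, 608 and 610 CPM, and 670, 673 and 697 CPM with IAMP-siR-2. Neat1, the long noncoding RNA of paraspeckles, rose 2.1-fold with IAMP-siR-1. These 3 transcripts rose with both siRNAs.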
